A study of Mus musculus with 4 samples.

Results

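The genes described here are 37 genes of the actin and myosin machinery and of the sites at which it is anchored, chosen by name. They were matched to the symbol of an array transcript cluster, and 36 of the 37 were measured, of 19938 genes in all. The exception was Ptk2, which encodes focal adhesion kinase. It had no cluster with its symbol alone in the annotation used and was not analysed here. The 36 genes fall into 9 smooth muscle genes and 6 general actomyosin genes, which together form a contractile group of 15, and into 11 focal adhesion genes, 6 actin crosslinking and bundling genes, 3 membrane linkers and the transcription factor gene Srf.

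RNA of 4 mouse pancreatic tumor cell lines was hybridised to Affymetrix Mouse Gene 1.0 ST arrays, with 1 array for each line. The TPAC lines, K459 and TCPA18654, carried Ela-TGFa, a TGF-α transgene under the elastase promoter of acinar cells, together with the Cre allele that the labels spell Ptg1a+/CRE, Trp53fl/fl and p65fl/fl. The TPC lines, TPC20223 and TPC18645, carried the same transgene, Cre allele and Trp53fl/fl without the floxed p65. Cells were grown from digested tumors in serum-containing medium without any treatment. By their labels, the genotypes differ in floxed p65, the RelA subunit of NF-κB, on a shared background of TGF-α and loss of p53. The sources used here give neither the age of the mice nor whether both lines of a genotype are from different animals. If they are not, the p-values below measure a spread between lines and not between animals.

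The lines did not separate cleanly by genotype. Rela, the floxed gene, had a log2 signal of 10.82 in K459 and 11.10 in TCPA18654, against 10.70 in TPC20223 and 11.12 in TPC18645. Its signal was thus not lower in the TPAC lines, but the sources used here do not say which probes lie in the floxed exons, so this signal does not check the deletion. Whether each line has the genotype of its label was not tested otherwise, and every TPAC minus TPC value below takes the labels as given. TCPA18654 and TPC18645, which differ in genotype, were the most alike, with 54 of 19938 genes at a difference of 2-fold or more, whereas TPC20223 and TPC18645, both TPC, differed so in 2244. The summed log2 signal of 6 epithelial markers was 74.2 in K459 and 68.8 in TCPA18654, against 40.8 in TPC20223 and 67.4 in TPC18645. TPC20223 therefore stood apart, and its cytokeratin Krt19 had a log2 signal of 6.08, below 6.96, the 40th percentile of mean signal over all genes. Genes at or below that level are called dim here. The arrays carry no detection call, so the size of a difference that involves a dim signal is not exact.

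Contractile force in cells comes from myosin II sliding along actin filaments, which tropomyosin, caldesmon and calponin coat and regulate. Focal adhesions are plaques in which talin and vinculin tie actin to integrins, with paxillin, FAK and Src as signalling partners. Serum response factor (SRF), with myocardin-related cofactors that respond to actin, drives many smooth muscle and cytoskeletal genes through a DNA element called the CArG box. These genes are high in smooth muscle and myofibroblasts, and several are also induced in epithelial tumor cells with mesenchymal features.

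The SRF element is shown for those members whose start site has one close by, since many smooth muscle genes are known SRF targets. RefSeq promoter windows (GRCm38.p6) were given for 31 of the 37 members, and none was given for Tagln, Actg2, Pxn, Tln2, Parva and Ptk2. A CArG box, searched on both strands in the 250 bases before the start, was found for 5 of the 31 members (16.1%), against 439 of all 27025 genes with a window (1.62%), or 1.47% of all 32851 windows. The stretches below are printed 5′ to 3′ on the strand of the gene, with the box in capitals. A match is only a match of letters. A gene without one may hold a box elsewhere, or one with other letters within these bases.
Myl9, chr2:156775283-156775332, plus strand: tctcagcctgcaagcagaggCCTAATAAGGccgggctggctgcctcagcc
Cnn2, chr10:79988524-79988573, plus strand: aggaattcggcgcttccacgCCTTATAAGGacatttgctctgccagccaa
Vcl, chr14:20929151-20929200, plus strand: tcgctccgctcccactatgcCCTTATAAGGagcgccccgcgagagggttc
Vil1, chr1:74409291-74409340, plus strand: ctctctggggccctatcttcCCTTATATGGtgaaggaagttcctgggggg
Srf, chr17:46556195-46556264, minus strand: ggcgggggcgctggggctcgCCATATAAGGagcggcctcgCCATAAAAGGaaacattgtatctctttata

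The boxes lay 161 bases before the start of Myl9, 56 before that of Cnn2, 227 before that of Vcl and 73 before that of Vil1, and the Srf stretch held boxes at 82 and 62 bases. The signals of these 5 genes did not follow a common order over the lines. Myl9 was highest in TPC20223 and Vil1 was lowest there, whereas the 4 signals of Cnn2 spanned a log2 difference of 0.20 and those of Vcl one of 0.15.

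The smooth muscle genes differed most between the lines, and all 9 had their highest signal in TPC20223. The lowest signal was in K459 for 6 of the 9. Of all 19938 genes, 5600 were highest in TPC20223 and 5145 lowest in K459. For Cnn1, Tagln, Actg2 and Myl9, TPC20223 was far above the other lines. For Tpm2 it was 8.0-fold above TPC18645 but only 2.62-fold above K459. Acta2, Mylk, Tpm1 and Cald1 were above the dim level in every line and spanned less than these 5 genes.

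Cnn1 encodes calponin 1, an actin-binding protein typical of smooth muscle. Its log2 signal was 6.63 in K459 and 6.79 in TCPA18654, against 11.97 in TPC20223 and 6.93 in TPC18645. The signals of both TPAC lines lay below those of both TPC lines, but 3 of the 4 lines were at the dim level and 1 line alone was high. TPC20223 was 32.9-fold above TPC18645. Tagln, which encodes the smooth muscle actin-binding protein transgelin (SM22α), had 8.69 in K459 and 7.14 in TCPA18654, against 11.87 in TPC20223 and 6.85 in TPC18645. Here the genotypes overlapped, since K459 stood between the high TPC line and the other lines, with a signal 2.93-fold above TCPA18654. The Tagln signal of TPC18645 was dim.

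Actg2, the γ-actin of enteric smooth muscle, had log2 signals of 6.32 in K459 and 6.62 in TCPA18654, against 11.09 in TPC20223 and 6.33 in TPC18645. Again the genotypes overlapped and 3 lines were dim. Smooth muscle, cardiac and skeletal actins are near-identical as proteins, and whether the probes of their genes share signal was not tested. The signals of the cardiac and skeletal actin genes spanned 0.19 for Actc1 and 0.10 for Acta1 over the 4 lines.

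Myl9, the regulatory light chain of smooth muscle and non-muscle myosin II, had log2 signals of 7.16 in K459 and 6.97 in TCPA18654, against 11.42 in TPC20223 and 7.32 in TPC18645. The genotypes did not overlap, yet the low TPC line lay only 0.16 above K459. Tpm2, β-tropomyosin, which stabilises actin filaments, had 9.19 in K459 and 7.71 in TCPA18654, against 10.58 in TPC20223 and 7.58 in TPC18645. As with Tagln, K459 was the second highest line, 2.79-fold above TCPA18654, and the genotypes overlapped.

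Acta2, smooth muscle α-actin, the usual marker of myofibroblasts, was abundant in every line. Its log2 signals were 11.66 in K459 and 12.09 in TCPA18654, against 13.24 in TPC20223 and 12.64 in TPC18645. The genotypes did not overlap, and TPC20223 was only 1.52-fold above TPC18645. Cald1, caldesmon, which restrains myosin on actin, showed the same order of the lines, with 10.96 in K459 and 11.52 in TCPA18654, against 12.07 in TPC20223 and 11.62 in TPC18645.

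Mylk encodes myosin light chain kinase, which switches on myosin II through Myl9 and related light chains. Its signals were 7.88 in K459 and 8.54 in TCPA18654, against 8.79 in TPC20223 and 8.36 in TPC18645, and the genotypes overlapped. Tpm1, α-tropomyosin, had 12.11 in K459 and 12.60 in TCPA18654, against 12.67 in TPC20223 and 12.53 in TPC18645. It varied least of the 9 genes, with only K459 lower than the rest.

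**Figure D1:**
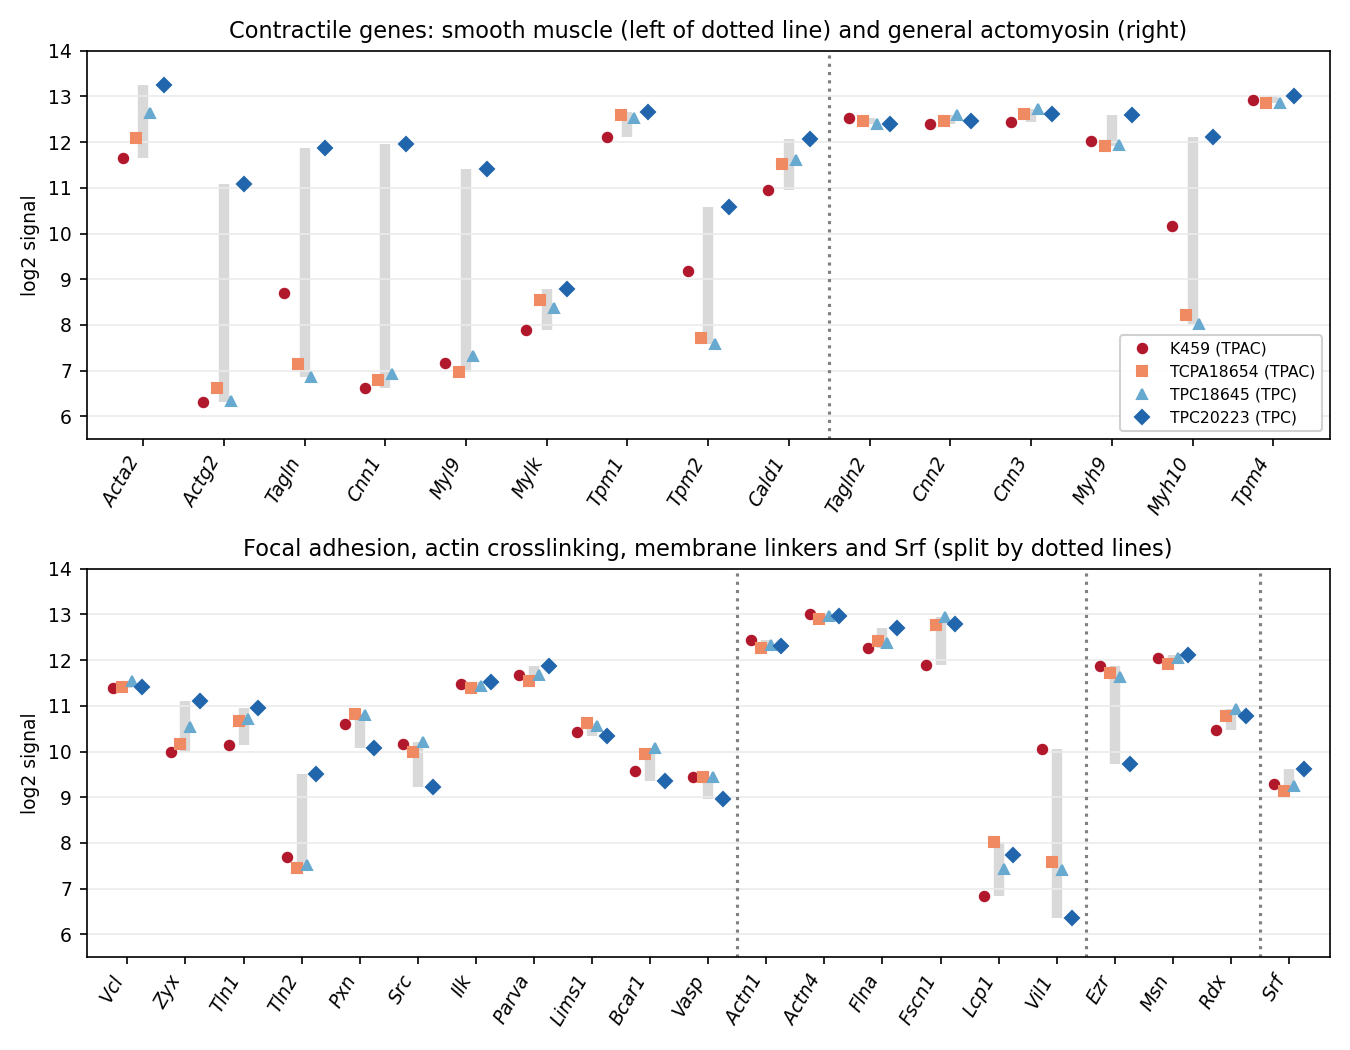
Log2 RMA signal (y axis) of each of the 36 measured genes (x axis), grouped by role, with 1 point for each line and a grey bar for the range over the 4 lines. In the smooth muscle group the TPC20223 point lies highest for all 9 genes, and the range reaches 5.34 for Cnn1. The median range is 3.0 for smooth muscle genes, 0.73 for focal adhesion genes and 0.75 for crosslinking genes. Over all genes it is 0.4.

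The 6 general actomyosin genes, whose products act in nearly all cell types, were steady with 1 exception. Myh10, the heavy chain of non-muscle myosin IIB, had log2 signals of 10.16 in K459 and 8.22 in TCPA18654, against 12.12 in TPC20223 and 8.03 in TPC18645. It shared the order of the lines with Tagln and Tpm2, and the genotypes overlapped. The other 5 genes spanned 0.12 to 0.69. Tagln2, a widely expressed relative of transgelin, spanned 0.12, Tpm4, a short tropomyosin, 0.16 and Cnn2, a calponin of non-muscle cells, 0.20. Calponin and transgelin genes thus differed within their families, since Cnn1 and Tagln varied by 5.34 and 5.02 while Cnn2, Cnn3 and Tagln2 all spanned less than 0.5. Myh9, the heavy chain of myosin IIA, spanned 0.69, with its highest signal in TPC20223.

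Among the 11 focal adhesion genes, 5 had their highest signal in TPC20223 and 5 their lowest there. Of all 19938 genes, 5600 were highest in that line and 7734 lowest. Zyx and Tln2 spanned a log2 difference of 1 or more, as did 15.9% of all genes. The median span of the 11 genes was 0.73, against 0.4 over all genes. Zyx encodes zyxin, a LIM protein that binds stress fibers under tension. Its log2 signals were 9.99 in K459 and 10.16 in TCPA18654, against 11.10 in TPC20223 and 10.53 in TPC18645, without overlap between the genotypes. Tln2, the less widely expressed talin, had 7.69 in K459 and 7.45 in TCPA18654, against 9.51 in TPC20223 and 7.52 in TPC18645. TPC20223 alone was high.

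Pxn, paxillin, the scaffold that FAK and Src phosphorylate, had log2 signals of 10.60 in K459 and 10.83 in TCPA18654, against 10.07 in TPC20223 and 10.81 in TPC18645. The low line was TPC20223. Src itself followed the same direction, with 10.16 in K459 and 9.98 in TCPA18654, against 9.23 in TPC20223 and 10.22 in TPC18645. Both genes overlapped between the genotypes, and the arrays measure RNA and say nothing of the phosphorylation of either protein. Of the other focal adhesion genes, Ilk, the integrin-linked kinase, spanned 0.13, Vcl, vinculin, 0.15 and Lims1, the partner of Ilk also called PINCH, 0.28. Bcar1 (p130Cas) and Vasp, an actin elongation factor, were lowest in TPC20223, with spans of 0.73 and 0.48, and Tln1, the main talin, and Parva, α-parvin, were highest there, with spans of 0.80 and 0.34.

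The crosslinkers of stress fibers were level, with spans of 0.09 for Actn4 and 0.17 for Actn1, the non-muscle α-actinins, and 0.45 for Flna, filamin A. Bundling proteins of cell protrusions varied more. Vil1, villin, which bundles the actin of epithelial microvilli, had log2 signals of 10.05 in K459 and 7.58 in TCPA18654, against 6.36 in TPC20223 and 7.40 in TPC18645. The genotypes did not overlap, but K459 alone was clearly high and TPC20223 was dim.

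Fscn1, fascin, the bundler of filopodia, had 11.90 in K459 and 12.77 in TCPA18654, against 12.79 in TPC20223 and 12.95 in TPC18645. K459 was the low line, and the other TPAC line lay 0.02 below the nearer TPC line. Lcp1, L-plastin, a bundler best known from leukocytes, had 6.84 in K459 and 8.02 in TCPA18654, against 7.73 in TPC20223 and 7.43 in TPC18645, with overlapping genotypes. Its K459 signal was dim.

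Ezr, ezrin, which ties actin to the apical membrane of epithelial cells, had log2 signals of 11.88 in K459 and 11.71 in TCPA18654, against 9.73 in TPC20223 and 11.63 in TPC18645. TPC20223 alone was low, and the genotypes did not overlap. The related linkers moesin (Msn) and radixin (Rdx) spanned 0.21 and 0.45. Srf had 9.28 in K459 and 9.13 in TCPA18654, against 9.62 in TPC20223 and 9.25 in TPC18645. The signal of the transcription factor thus varied by 0.49 in all, against 5.34 for Cnn1.

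Set against each other by genotype, none of the 36 genes passed the test. The limma fit over all 19938 genes called 0 of them (0%) at limits of 0.05 for the adjusted p and 0.58 for the log2 difference, and the smallest adjusted p of a member was 0.989. At an unadjusted p of 0.05, 2 of the 36 members stood below the limit, Acta2 and Zyx, as did 156 of all genes. The log2 difference, TPAC minus TPC, was -1.07 ± 0.30 (SE, 95% interval -1.91 to -0.22) for Acta2, with an adjusted p of 0.989 by limma. For Zyx it was -0.74 ± 0.25 (SE, 95% interval -1.45 to -0.03), with an adjusted p of 0.989 by limma. Without TPC20223 the differences were -0.77 for Acta2 and -0.46 for Zyx. An exact two-sided permutation test of 2 lines against 2 cannot give a p below 0.333. The precision of every value is limited by having only 4 arrays.

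The fold changes of the variable genes had wide errors. The difference was -2.74 ± 1.85 (SE) for Cnn1, with a 95% interval of -8.01 to 2.53. Without TPC20223 it was -0.22 for Cnn1 and -0.26 for Myl9, and for Actg2, Tagln, Tpm2 and Myh10 it turned positive, at 0.14, 1.07, 0.87 and 1.16. Ezr, at 1.12 with all lines, was at 0.17 without TPC20223, and Vil1, at 1.94 with all lines, was at 0.70 without K459. For Pxn and Src the differences of 0.28 ± 0.31 and 0.35 ± 0.39 (SE) turned to -0.095 and -0.15 without TPC20223.

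**Figure D2:**
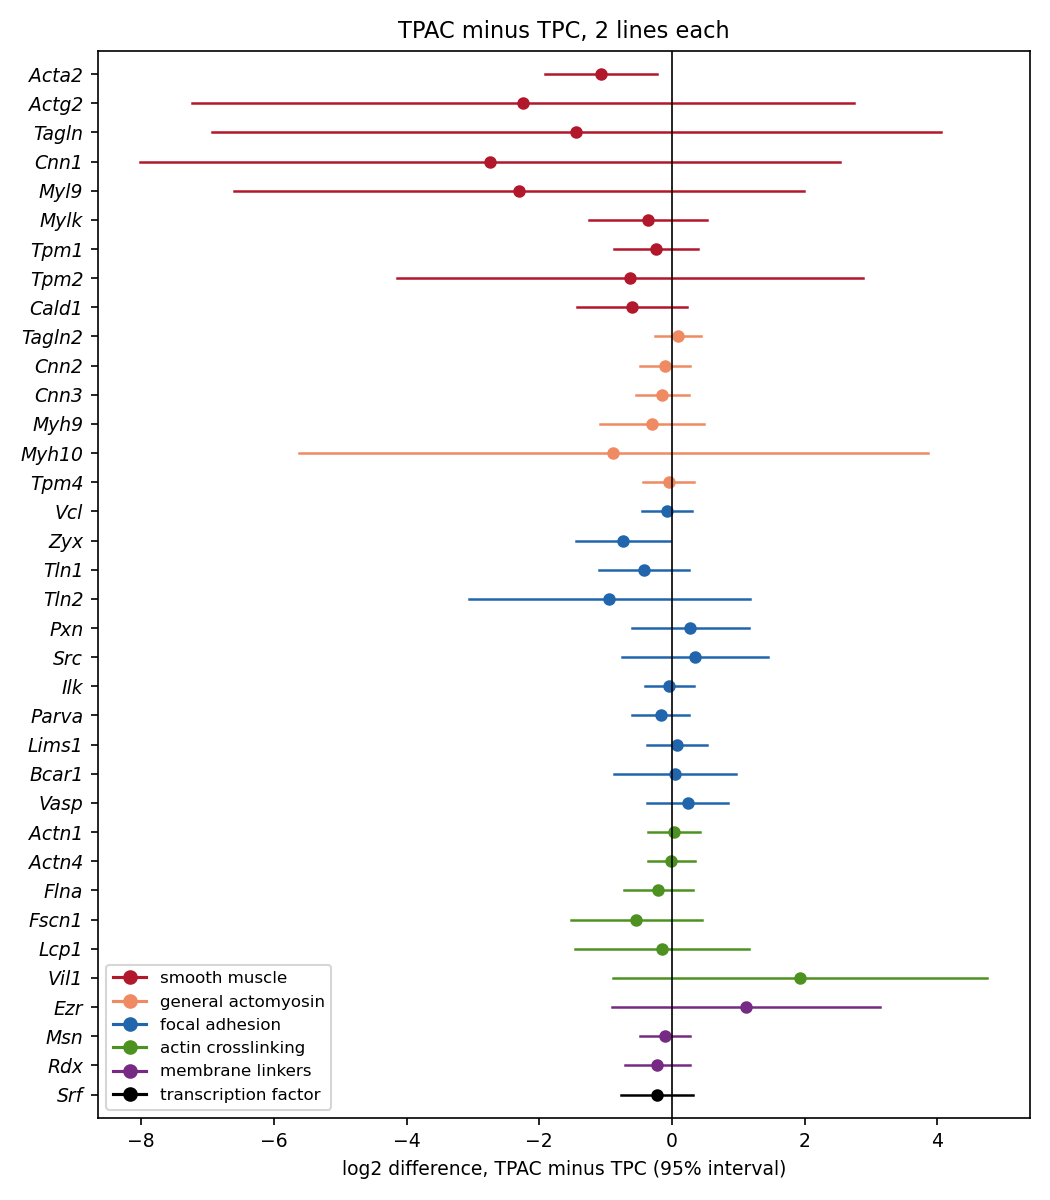
Log2 difference, TPAC minus TPC (x axis), of each of the 36 genes (n = 2 lines of each genotype), with the 95% interval of the limma fit as a bar. Most intervals cross 0, the exceptions being Acta2 and Zyx, and the widest belong to genes that differ between both TPC lines, such as Cnn1.

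By direction, 27 of the 36 members had a lower mean in TPAC lines than in TPC lines, including all 9 smooth muscle genes. Of all 19938 genes, 9422 had a lower mean in TPAC lines. The median difference was -0.61 over the 15 contractile genes and -1.07 over the smooth muscle genes alone, against -0.04 over the focal adhesion genes and 0.02 over all genes. The gap between the contractile and focal adhesion medians was therefore -0.57. Computed for each line first, as medians of deviations from the mean of the 4 lines, the gap averaged -0.18 in TPAC lines and 0.21 in TPC lines, a difference of -0.39 against a pooled SD of 0.36 between lines within a genotype. Without TPC20223 the contractile median was -0.15 and the gap -0.06, and without K459 they were -0.36 and -0.285. The smooth muscle median was -0.175 without TPC20223, with 6 of the 9 genes lower and 3, Actg2, Tagln and Tpm2, higher in TPAC lines, and it was -2.13 without TPC18645. Both TPAC lines lay above both TPC lines for 3 members, Tagln2, Vil1 and Ezr, a pattern of 13.7% of all genes. They lay below both for 8 members, Acta2, Cnn1, Myl9, Cald1, Cnn3, Zyx, Tln1 and Fscn1, where the share over all genes was 13.3%.

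Within the TPC genotype the contractile and focal adhesion medians differed, but the groups overlapped. Log2 differences, TPC20223 minus TPC18645, ran from -0.13 to 5.04 for contractile genes and from -0.99 to 1.99 for focal adhesion genes. TPC20223 was above TPC18645 for all 9 smooth muscle genes, with a median log2 difference of 3.0, and for 12 of the 15 contractile genes, with a median of 0.60. The focal adhesion median was -0.14 and that of all genes -0.05, which leaves a gap of 0.74 between both groups. With 1 array for each line there is no replicate check and no test of this difference. At 2-fold or more, 7 of 36 members were higher in TPC20223, against 5.98% of all genes, and 2 were lower, against 5.28%. The higher members were Cnn1, Tagln, Actg2, Myl9, Myh10, Tpm2 and Tln2, by 32.9-, 32.4-, 27.1-, 17.1-, 17.0-, 8.0- and 3.97-fold, and the lower ones Ezr and Vil1, by 3.73- and 2.06-fold. Cnn1, Tagln and Actg2 were dim in TPC18645, and Vil1 was dim in TPC20223, so these fold values are not exact. Myl9, at 7.32 in TPC18645, was not far above the dim level. Src, with a log2 difference of -0.99, was just short of the limit. The contractile group thus did not shift as a whole. Acta2, Cald1, Mylk and Tpm1 differed by 0.60, 0.45, 0.43 and 0.14.

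The TPAC lines differed from each other in fewer members. K459 was above TCPA18654 by 2-fold or more for Vil1, Myh10, Tagln and Tpm2, which is 4 of 36 members against 2.62% of all genes, and below it for Lcp1 alone, against 1.25% of all genes. The contractile median was -0.07 and the focal adhesion median -0.01, so the gap was -0.06. Within the smooth muscle group the members split, since Tagln and Tpm2 were 2.93- and 2.79-fold higher in K459 while Mylk, Cald1, Tpm1 and Acta2 had differences of -0.66, -0.56, -0.49 and -0.43.

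Across the genotypes the outcome depended on which TPC line was used. TCPA18654 minus TPC18645 held no member past 2-fold in either direction, against 0.12% of all genes higher and 0.15% lower. Its differences ran from -0.55 for Acta2 to 0.59 for Lcp1, and the gap was 0.06. TCPA18654 minus TPC20223 held 2 members higher, Ezr and Vil1, against 4.55% of all genes, and 8 lower, against 6.33%, with a gap of -0.69.

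K459 minus TPC18645 held 4 members higher, Vil1, Myh10, Tagln and Tpm2, against 2.6% of all genes, and 1 lower, Fscn1, against 1.74%. Its gap was -0.04. K459 minus TPC20223 held 2 members higher, Vil1 and Ezr, against 5.11% of all genes, and 10 lower, against 5.8%, with a gap of -1.10. The pairs share lines, so their counts are not independent of each other. The 8 members for which both TPAC lines lay below both TPC lines were by that rule lower in all 4 pairs across the genotypes. For Acta2, 1 of these 8, the difference ran from 1.46-fold for TCPA18654 against TPC18645 up to 2.99-fold for K459 against TPC20223.

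**Figure D3:**
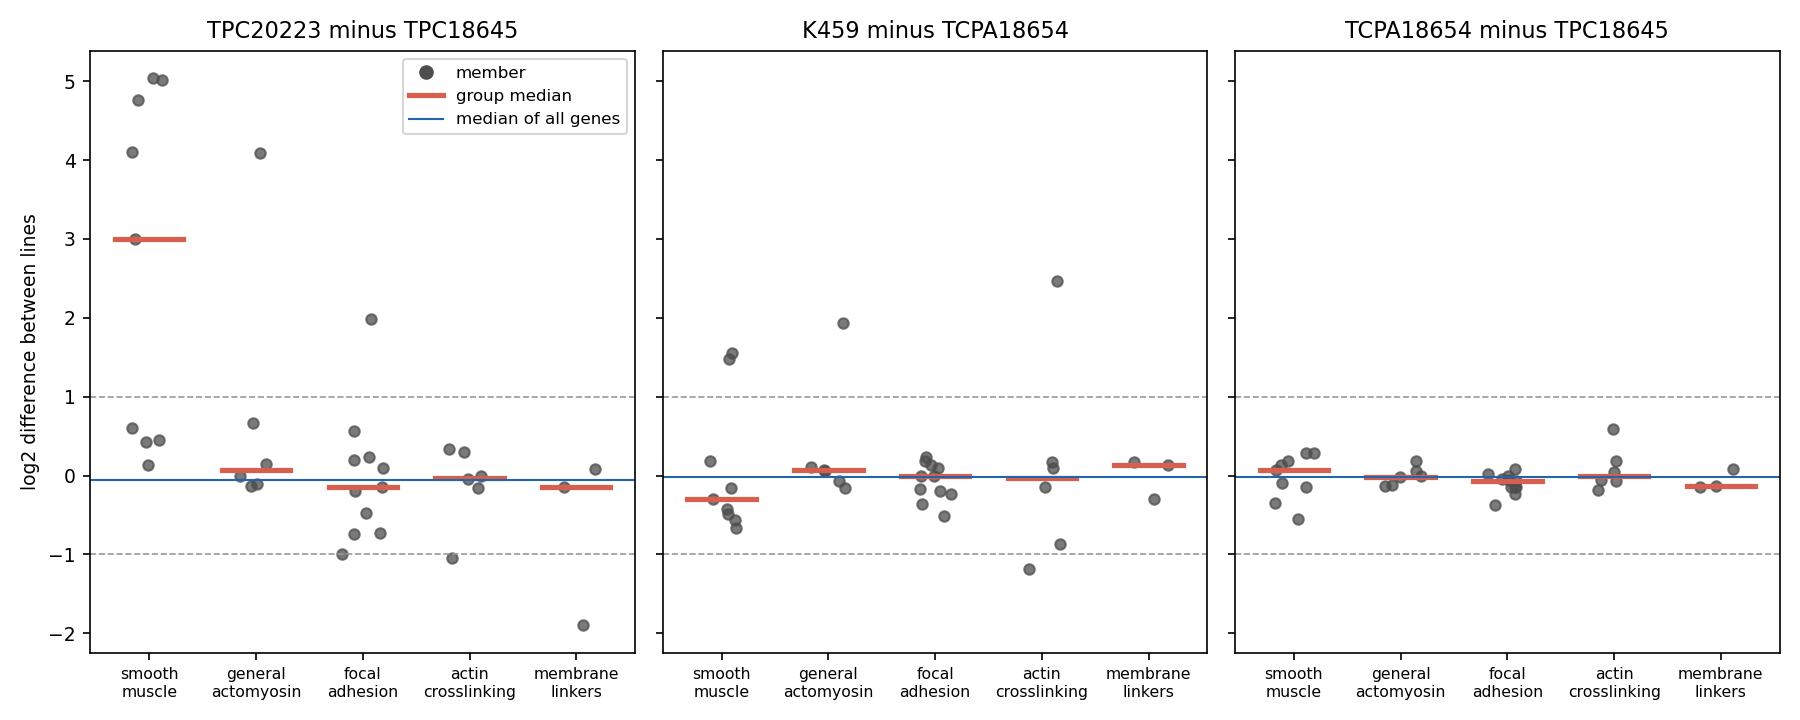
Log2 difference between lines (y axis) of each member, by group, for TPC20223 minus TPC18645, K459 minus TCPA18654 and TCPA18654 minus TPC18645, with red bars for group medians, a blue line for the median of all genes and dashed lines at 2-fold. The smooth muscle median is 3.0 in the first pair and near 0 in the third, where all points lie between -0.55 and 0.59.

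Further genes of these pathways were read from 4 lists, and 0 of their measured genes were called between TPAC and TPC. Of 20 listed smooth muscle genes and SRF cofactors, 18 were measured, and 14 of these had a lower mean in TPAC lines. TPC20223 was above TPC18645 by 2-fold or more for 4 of the 18 and below for 0, where the shares over all genes were 5.98% and 5.28%. Fhl1, a LIM protein of striated muscle, had log2 signals of 8.94 in K459 and 8.91 in TCPA18654, against 11.83 in TPC20223 and 9.85 in TPC18645. Tgfb1i1, the paxillin relative Hic-5, had 9.23 in K459 and 8.22 in TCPA18654, against 10.63 in TPC20223 and 8.50 in TPC18645. Csrp2, a LIM protein of vascular smooth muscle, had 11.60 in K459 and 10.22 in TCPA18654, against 11.94 in TPC20223 and 10.18 in TPC18645. For Tgfb1i1 and Csrp2, K459 was the second highest line, as for Tagln, Tpm2 and Myh10.

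Chosen after their values were seen, the cofactors of SRF and a late marker are given too. Mrtfa, the myocardin-related factor that actin binds, was level at 9.27 in K459, 9.29 in TCPA18654 and 9.31 in TPC18645, and was 10.41 in TPC20223. The related Mrtfb was lowest in TPC20223, with 9.86 in K459 and 10.40 in TCPA18654, against 9.70 in TPC20223 and 10.35 in TPC18645. Myocd, myocardin, the cofactor of smooth muscle, was dim in every line, from 5.47 in K459 to 6.53 in TPC20223. Myh11, the smooth muscle myosin heavy chain and a defining marker of mature smooth muscle, was dim in every line, at 6.69 in K459 and 6.77 in TCPA18654, against 6.73 in TPC20223 and 6.64 in TPC18645. The smooth muscle genes that were high in TPC20223 were thus not accompanied by a higher Myh11 signal.

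Of the genes that control the myosin light chain and actin turnover, 21 of 22 were measured, with 13 higher and 8 lower in mean in TPAC lines. TPC20223 was above TPC18645 by 2-fold or more for 2 of the 21 and below for 2, counts near the shares of 5.98% and 5.28% over all genes. Pfn2, a profilin, had log2 signals of 8.91 in K459 and 8.66 in TCPA18654, against 10.55 in TPC20223 and 8.90 in TPC18645. Cdc42ep3, an effector of the GTPase CDC42, had 7.94 in K459 and 8.91 in TCPA18654, against 10.22 in TPC20223 and 8.72 in TPC18645. Rhob, a stress-inducible small GTPase, went the other way, with 10.32 in K459 and 9.68 in TCPA18654, against 8.53 in TPC20223 and 9.71 in TPC18645.

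Of 30 focal adhesion partners 28 were measured, with 13 higher and 15 lower in mean in TPAC lines, and TPC20223 was above TPC18645 by 2-fold or more for 1 and below for 2, against 5.98% and 5.28% of all genes. Fermt1, kindlin-1, the integrin activator of epithelia, had the widest span, with 11.40 in K459 and 9.93 in TCPA18654, against 5.59 in TPC20223 and 9.58 in TPC18645. Enah (Mena), which elongates actin filaments, had 9.99 in K459 and 9.66 in TCPA18654, against 11.40 in TPC20223 and 9.37 in TPC18645. Tns1, tensin 1, which binds integrin tails and actin, had 9.64 in K459 and 10.66 in TCPA18654, against 11.14 in TPC20223 and 10.93 in TPC18645.

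The other actin and tropomyosin genes, 12 of 14 measured, were evenly split, with 6 higher and 6 lower in mean in TPAC lines, and TPC20223 was above TPC18645 by 2-fold or more for 1 and below for 1, again beside 5.98% and 5.28% of all genes. Pls1, the plastin of epithelial brush borders, had 10.64 in K459 and 9.85 in TCPA18654, against 6.63 in TPC20223 and 9.74 in TPC18645. Like villin, ezrin and kindlin-1, it was lowest in TPC20223. Flnc, the muscle filamin, had 9.76 in K459 and 10.42 in TCPA18654, against 11.61 in TPC20223 and 10.44 in TPC18645. Filip1l, a filamin-interacting protein, had 10.05 in K459 and 10.90 in TCPA18654, against 10.45 in TPC20223 and 10.82 in TPC18645.

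**Figure D4:**
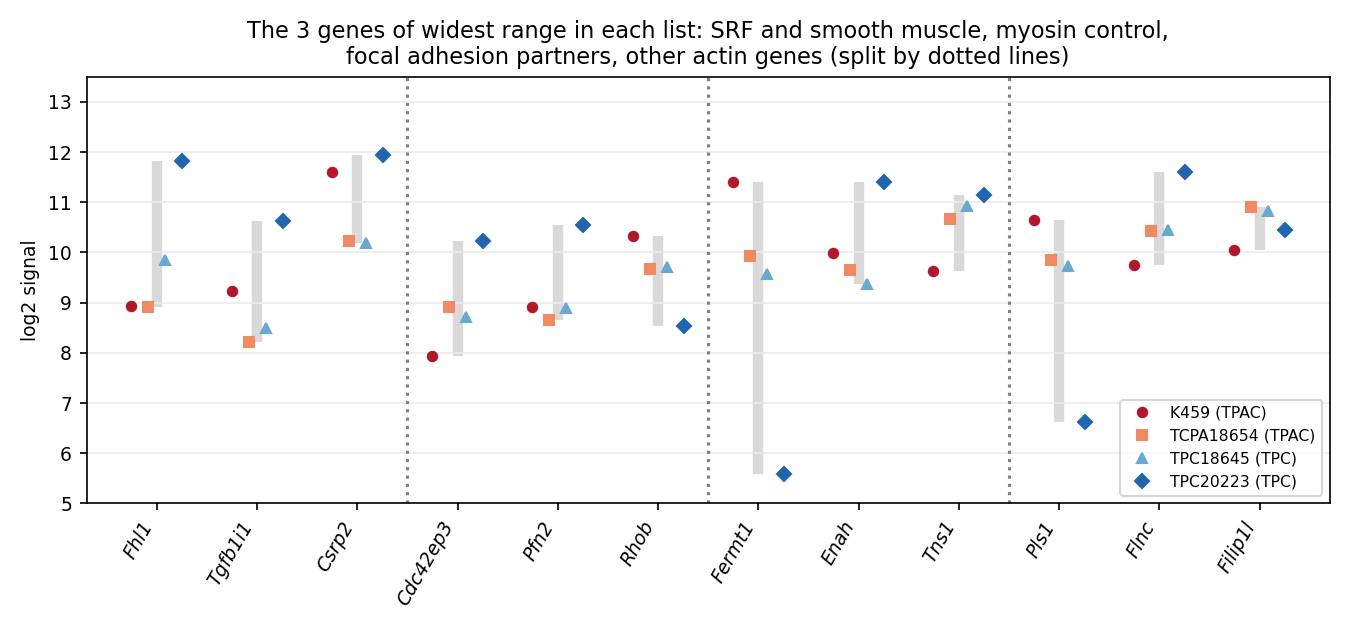
Log2 signal (y axis) of the 3 genes of each pathway list whose signals span most, with 1 point for each of the 4 lines and a grey bar for their range. TPC20223 is highest for Fhl1, Tgfb1i1 and Csrp2 and lowest for Rhob, Fermt1 and Pls1.

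Markers of other cell types were read beside these differences. Fewer cells of a type and less RNA in each cell cannot be told apart in bulk RNA. The summed log2 signal of 9 fibroblast markers was 72.1 in K459 and 70.5 in TCPA18654, against 83.2 in TPC20223 and 71.4 in TPC18645, and 5 of the 9 were 2-fold or more higher in TPC20223 than in TPC18645, while 1 was lower. The lower marker was Dcn, decorin, with 8.57 in K459 and 10.99 in TCPA18654, against 9.35 in TPC20223 and 11.03 in TPC18645. Col1a1, type I collagen, had 10.36 in K459 and 8.72 in TCPA18654, against 13.02 in TPC20223 and 8.53 in TPC18645, while the fibroblast genes Lum and Fap were dim in every line. For 8 pericyte and vascular smooth muscle markers the sums were 54.0 in K459 and 55.2 in TCPA18654, against 59.5 in TPC20223 and 55.0 in TPC18645, and 5 of the 8, Myh11 among them, were dim in every line. Of the 8, 1 was 2-fold or more higher in TPC20223 than in TPC18645 and 0 were lower. The higher one was Cspg4, with 6.93 in K459 and 7.44 in TCPA18654, against 10.15 in TPC20223 and 7.63 in TPC18645.

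Of the 6 epithelial markers 5 were lower in TPC20223 than in TPC18645 by 2-fold or more, and Cdh1, E-cadherin, had 12.62 in K459 and 12.68 in TCPA18654, against 6.96 in TPC20223 and 12.57 in TPC18645. TPC20223, the highest line for all 9 smooth muscle genes among the members, was the lowest line for the summed epithelial markers. Leukocyte markers, 7 of 8 measured, summed to between 42.2 and 44.8 over the 4 lines, with 6 dim in every line. Of the 7, 0 were 2-fold or more higher in TPC20223 than in TPC18645 and 1 was lower. The lower one was Cd68, with 7.66 in K459 and 8.60 in TCPA18654, against 6.66 in TPC20223 and 8.60 in TPC18645. Endothelial markers summed to between 30.7 and 32.6. Of the endothelial markers, 1 was 2-fold or more higher in TPC20223 than in TPC18645 and 0 were lower. The higher one was Tek, with 5.80 in K459 and 5.80 in TCPA18654, against 7.15 in TPC20223 and 5.85 in TPC18645. The part that fibroblasts or other cells had in the smooth muscle signals of TPC20223 was not tested.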

How the data were processed

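Total RNA of 4 cultured lines was measured on 1 array each. The authors deposited log2 signals after RMA. Affymetrix Expression Console 1.4 is named in the submitters' processing notes, while filters and array batches are not given in the sources used here. RMA equalises the distribution of the arrays and would hide a difference in total RNA. Of 28941 transcript clusters, 21789 carried 1 gene symbol, 1621 several and 5531 none. By Entrez number, 21698 of those with 1 symbol were found in RefSeq (GRCm38.p6), and 0 symbols changed. Each gene was read from its cluster of highest mean signal, which gave 19938 genes.

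The genotypes were compared with limma 3.58.1 under R 4.3.3 (lmFit and eBayes, two-sided), and p-values were adjusted over all genes by the method of Benjamini and Hochberg. A call needed an adjusted p no higher than 0.05 together with a log2 difference of at least 0.58. Lines were compared in pairs at a log2 difference of 1 without a test. Values in each line were given for the smooth muscle genes, Pxn, Src, Srf, members spanning 1 or more and the 3 genes of each pathway list that span most. The limma fit was tested on simulated data, with less spread between lines of a genotype than the variable genes showed here. The members, lists and rules were chosen with earlier results of these data known. Alternatives were other array scalings, the mean of a gene's clusters, a filter on dim genes, an intensity trend, the methods' test, other limits, other group definitions and leaving out each line.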

Additional observations from a re-analysis of the deposited data

How the results depend on the processing

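No paired analysis was possible because the labels carry no replicate numbers that groups share. No gene was called between TPAC and TPC under any alternative that kept the adjusted p, with smallest adjusted p over all genes from 0.0913 (without TPC18645, where limma takes the lone TPC line to vary like the TPAC lines) to 0.998. By limma, 84 genes and 2 members passed an unadjusted p of 0.05 with the same log2 difference, and by the methods' test 15 genes did, with 11 genes left out for want of spread. Leaving out each line in turn gave a contractile median of -0.83 to -0.15 and a gap between contractile and focal adhesion medians of -0.825 to -0.055, TPAC minus TPC, and the gap was -1.025 with the smooth muscle genes only.

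Over the 36 members, the TPAC minus TPC difference changed sign for 13 without TPC20223, 6 without TCPA18654, 2 without K459 and 0 without TPC18645. Of the members with values in each line in the report, those with a change ran from -4.62 to 0.14 for Actg2, -3.955 to 1.065 for Tagln, -2.13 to 0.87 for Tpm2, -2.93 to 1.16 for Myh10, -1.94 to 0.05 for Tln2, -0.095 to 0.645 for Pxn, -0.15 to 0.84 for Src and -0.74 to 0.44 for Lcp1. In these the sign changed without TPC20223, for Tpm2 and Myh10 also without TCPA18654 (0.11 and 0.085), and for Lcp1 only without K459.

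Between lines, the gap with the smooth muscle genes only was 3.14 for TPC20223 minus TPC18645, -0.29 for K459 minus TCPA18654, -0.18 for K459 minus TPC18645, 0.14 for TCPA18654 minus TPC18645, -2.87 for TCPA18654 minus TPC20223 and -1.57 for K459 minus TPC20223. With means in place of medians it was 1.90, 0.25, 0.33, -1.81 and -1.57 for TPC20223 minus TPC18645, K459 minus TCPA18654, K459 minus TPC18645, TCPA18654 minus TPC20223 and K459 minus TPC20223, so that K459 minus either of TCPA18654 and TPC18645 changed sign. After cyclic loess it was -0.0014 for K459 minus TCPA18654 and -0.0038 for TCPA18654 minus TPC18645, a change of sign, and with Actn1, Actn4 and Flna added to the focal adhesion genes it was -0.075 for K459 minus TPC18645. The cause was not tested. At a log2 limit of 0.58, 14 members passed for TPC20223 minus TPC18645, 8 for K459 minus TPC18645 and 1 for TCPA18654 minus TPC18645. A common median per array moved the median of all genes to 0.15 for TCPA18654 minus TPC20223 and to -0.11 for K459 minus TCPA18654, against 0.06 and -0.02 as deposited.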

Other observations

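Myl12b, the regulatory light chain of non-muscle myosin II, had log2 signals of 12.60 in K459 and 12.94 in TCPA18654, against 11.47 in TPC20223 and 12.98 in TPC18645, so that its low line was the line in which Myl9 was high. The smoothelin gene Smtn had 9.28 in K459 and 9.53 in TCPA18654, against 10.41 in TPC20223 and 9.56 in TPC18645. The β-actin gene Actb was level, at 14.27 in K459 and 14.22 in the other lines. A second cluster that carries the symbol of Tpm4 together with that of Gm7809 was left out of the measured genes, and it was as level as the Tpm4 cluster used, at 13.54 in K459 and 13.53 in TCPA18654, against 13.46 in TPC20223 and 13.48 in TPC18645. Myl12b, Smtn and Actb were chosen after their values were seen.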
